A study of Mus musculus with 1617 samples.

Results

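Microglia of the mouse visual cortex at postnatal day 14 (P14) were compared with those at postnatal day 7 (P7). The cells were chosen by their labels: the source name gives region and age, and the description gives the read layout. Of the 150 P14 cells read as paired ends, 144 had 1000 genes or more at 1 TPM and were kept, and so were 28 of the 32 P7 cells, all of which were read as paired ends. The 172 kept cells come from a series of 1617 single brain macrophages. Both groups were sorted as CD45+, F4/80+, CD11b+ and Ly6C- cells, captured one by one on Fluidigm C1 chips and made into Nextera XT libraries. The labels name no genotype, strain, sex, treatment or animal for either age. With no animal named, each age counts as a single sample, so no p-value or standard error is given for any difference, and cells are never used as replicates.

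Microglia are the resident macrophages of the brain parenchyma. They settle in the embryo, divide during the first postnatal weeks, and then acquire a mature program that depends on CSF1 receptor signalling, on TGF-beta and on the transcription factor SALL1. In the early postnatal brain a subset rich in Spp1, Igf1, Lpl, Clec7a and Gpnmb is found in regions of growing white matter, and the second postnatal week is a time of synapse formation and pruning in the visual cortex.

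Values are TPM, transcript levels per length that are scaled to a fixed total in each cell, and they carry no sequencing depth. Genes at 1 TPM or more numbered 1258 to 3175 per P7 cell (median 2085.5) and 1068 to 4549 per P14 cell (median 2700.0). The P14 titles fall into 2 unbroken runs of cell numbers, here run 1 (65 cells) and run 2 (79 cells), and the P7 titles into 1. The sources used here do not say what a run stands for, and age cannot be told apart from the preparation of the cells. Y-linked Ddx3y or Eif2s3y stood at 1 TPM or more in 53 of 144 P14 cells and in 0 of 28 P7 cells (upper limit for a share of 0: 10.7%). Xist, the RNA of the inactive X chromosome, was found in 20 of 28 P7 cells and 53 of 144 P14 cells, so the ages also differed in these transcripts. The part of sex and of genes per cell in the results below was not tested; values in P14 cells with Xist and without Y-linked transcripts, and in cells matched for genes per cell, stand beside a result or with the other settings at the end.

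A gene was called measured at a mean of 5 TPM in either age. It was called higher or lower at P14 when the mean of each P14 run differed from the P7 mean by 1.5-fold or more in the same direction and the mean of log2(TPM + 1) over cells had moved the same way in both runs. Of 10040 measured genes among 43280 in the table, 3381 were higher at P14 (33.7%) and 1645 were lower (16.4%). Among the 1583 genes averaging 100 TPM or more over both ages the balance was the other way round, with 253 higher (16%) and 400 lower (25.3%). The median log2 ratio of mean TPM + 1, P14 over P7, was 0.85 over all measured genes and -0.25 over these abundant genes. After scaling of the group means by median ratios, 2582 genes were higher and 2033 lower. Between the runs within P14, without any condition on a second run, 37.0% of measured genes were 1.5-fold higher in run 2 than in run 1 and 32.8% lower. By the same simple rule 54.3% were higher and 25.6% lower at P14 than at P7. A fold of this size in a single gene is thus common between cells of 1 age, and the counts below are read beside these shares.

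**Figure D1:**
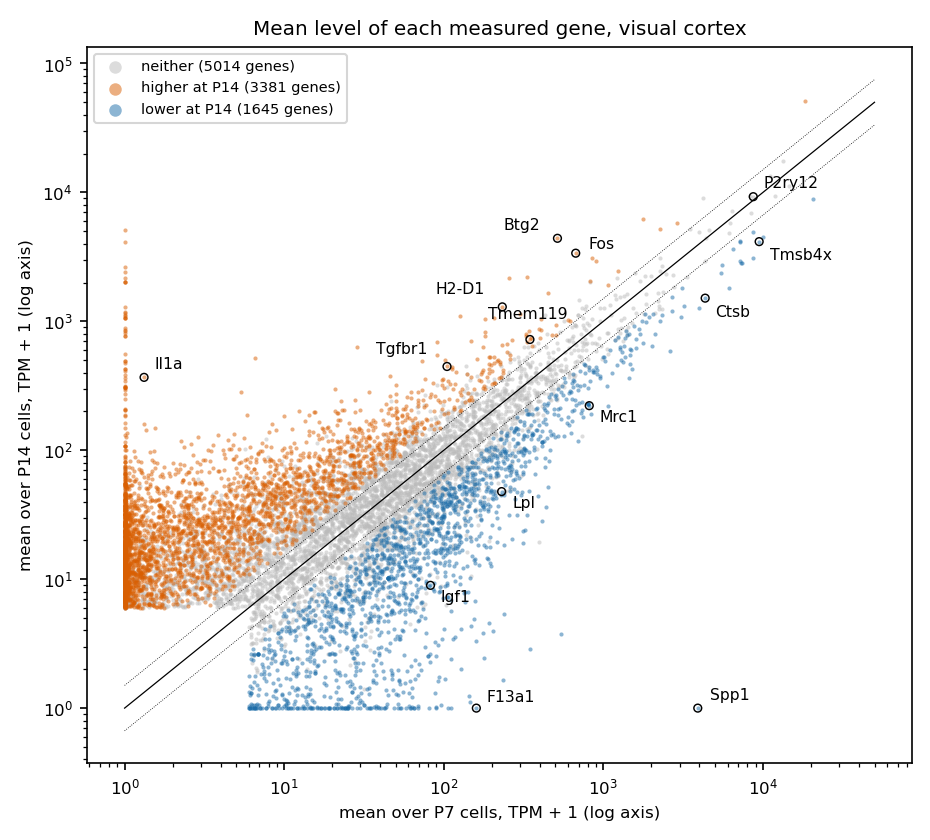
Mean level of each measured gene over 28 P7 cells (x axis) and 144 P14 cells (y axis), both as TPM + 1 on log axes. Orange points are the 3381 genes called higher, blue points the 1645 called lower; the solid line marks equal means and the dotted lines 1.5-fold. Most orange points lie at low P7 means, while several of the most abundant genes, such as Tmsb4x and Ctsb, lie below the line.

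Genes of homeostatic microglia differed unevenly. Tmem119, Csf1r, Sparc and Selplg were among the genes higher at P14, each by close to 1 on the log2 scale, while P2ry12, Cx3cr1 and Sall1 were not called and Tyrobp was lower. Of 18 measured homeostatic genes 5 were higher and 1 was lower, beside 33.7% and 16.4% of all measured genes, so the count of higher members is not above the background. Their median log2 ratio was 0.34. As a difference of mean log2(TPM + 1), in which every cell weighs more evenly, the median was 1.24 against 0.16 over all measured genes, and 16 of the 18 were above 0.

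Tmem119, a surface protein used to separate microglia from other macrophages (chromosome 5, 113793729 to 113800516, minus strand), was present in 14 of 28 P7 cells (50%, exact binomial 95% interval 30.6 to 69.4) and in 126 of 144 P14 cells (87.5%, 81.0 to 92.4). The median cell held 1.06 TPM at P7 and 302 TPM at P14, with highest cells of 3337 and 5801 TPM. The median P7 cell thus lay close to the 1 TPM used for presence, and the mean (346 and 722 TPM, log2 1.06) shows less of the difference than the share does. P7 cells also had fewer genes per cell, and whether the transcript was absent or missed in a given cell was not tested. In cells matched for genes per cell, 14 at P7 and 20 at P14, the ratio of Tmem119 means turned to -0.37. Intervals on shares cover counting error over cells only.

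Csf1r is the receptor for CSF1 and IL-34, on which microglial survival depends. It stood at 2.02, 949.7 and 4704 TPM in the lowest, median and highest P7 cells and at 0.810, 2060.0 and 10025 TPM at P14 (means 1231 and 2467 TPM). Sparc, a matricellular protein (chromosome 11, 55394500 to 55423183, minus strand), held 6.26, 2466 and 9857 TPM in the lowest, median and highest P7 cells and 0, 5264 and 22892 TPM at P14. Its means were 2909 and 5744 TPM (6576 in run 1 and 5059 in run 2), a log2 ratio of 0.98. The ranges overlap, while the median P14 cell held more than the median P7 cell. Selplg, the ligand of P-selectin, averaged 327 and 793 TPM (1.28). By contrast P2ry12, the ADP receptor that guides microglial processes, averaged 8692 TPM at P7 and 9259.5 TPM at P14 (0.09) and was found in every cell of both ages. Cx3cr1, the fractalkine receptor, averaged 3953 and 4969 TPM, but run 1 (3374 TPM) lay below P7 and run 2 (6281 TPM) above. Sall1 averaged 346 and 443 TPM (0.35). The means of these 3 defining genes differed by less than 1.5-fold between the ages. Tyrobp, the signalling adaptor that pairs with TREM2, was lower at P14 in the mean (6481 and 3646 TPM, log2 -0.83), with median cells of 6083 and 3190.3 TPM.

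**Figure D2:**
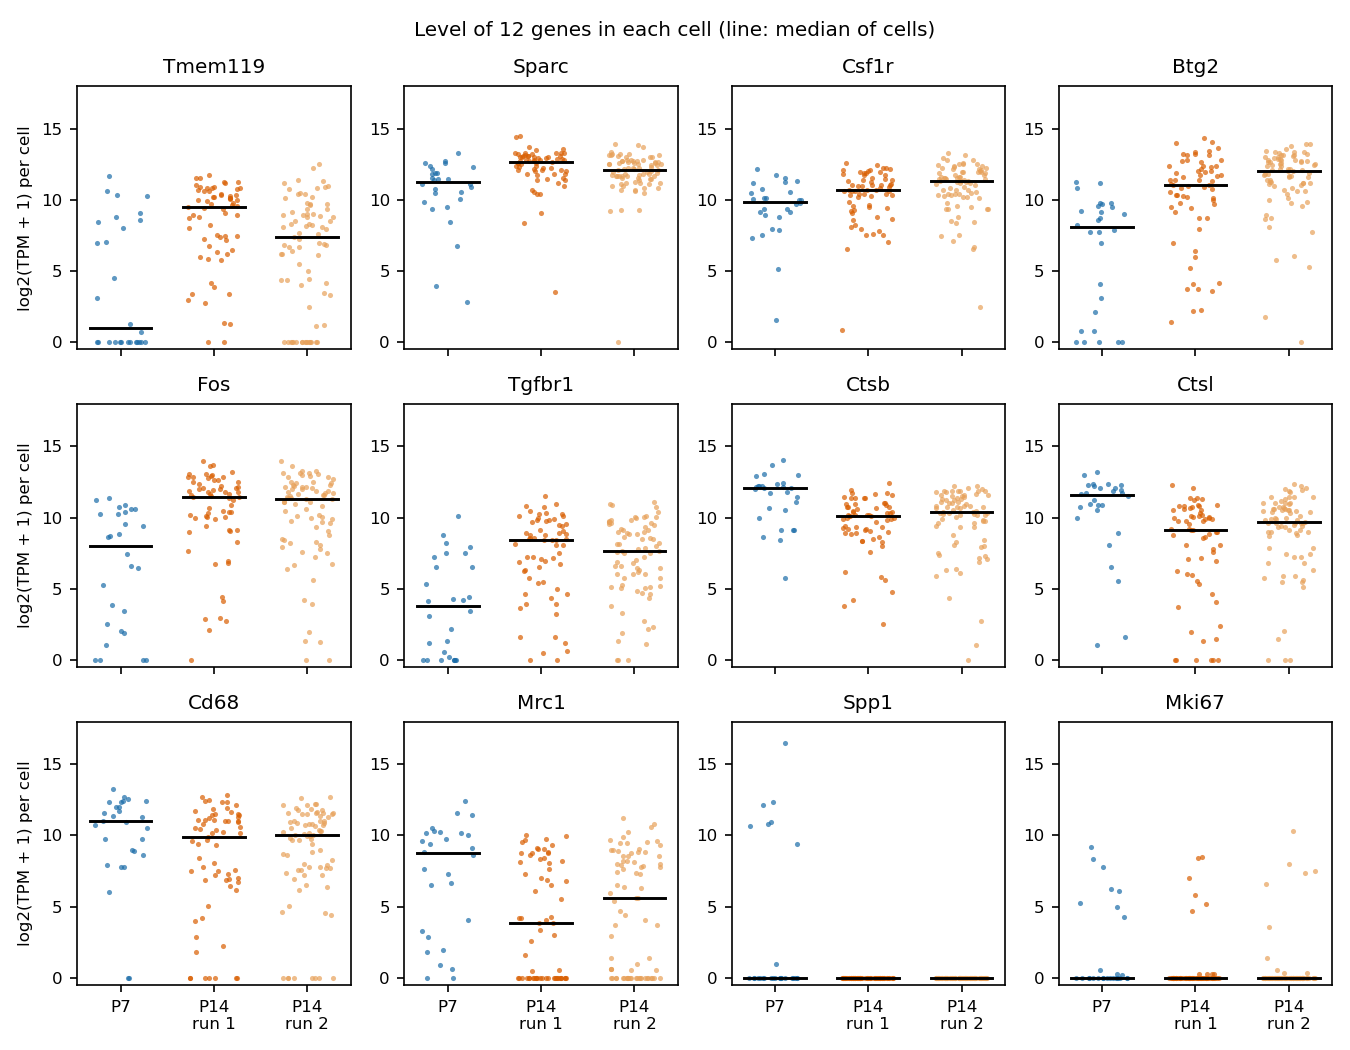
Level of 12 genes in each kept cell, as log2(TPM + 1), for the 28 P7 cells and for P14 run 1 (65 cells) and run 2 (79 cells); the line is the median of cells. Cells of the ages overlap for each gene; Sparc, Btg2, Fos and Tgfbr1 have higher medians in both P14 runs, Ctsb, Ctsl and Mrc1 lower ones, and Spp1 is at 0 in all P14 cells.

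Nearly all immediate early genes were higher at P14. These genes are transcribed within minutes of a stimulus and include transcription factors of the AP-1, EGR and KLF families and their feedback regulators. The same genes respond to tissue dissociation and sorting. Of 20 measured members 18 were higher at P14 and 0 lower, beside 33.7% and 16.4% of all measured genes. The median log2 ratio was 2.56 (2.38 in run 1 and 2.48 in run 2), and 3.03 for differences of mean log2(TPM + 1). Over all alternative settings it stayed between 1.96 and 3.03. The summed level of the 21 listed genes ran from 0.93 to 18104 TPM in P7 cells (median 6581) and from 85.1 to 63699 TPM in P14 cells (median 24589). In single-read P14 cells of the visual cortex the median sum was lower, at 13215 TPM. It was 6272 TPM in P7 hippocampus and 12592 TPM in P7 thalamus, so single-read P14 and P7 thalamus stood close together.

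Btg2, an antiproliferative co-regulator of mRNA decay (chromosome 1, 134075170 to 134079120, minus strand), held 0, 270.3 and 2465 TPM in the lowest, median and highest P7 cells. At P14 the values were 0, 3229 and 20897 TPM. The median P14 cell lies above every P7 cell. Means were 515 and 4404 TPM (3802 in run 1 and 4899 in run 2), a log2 ratio of 3.09. Fos, the AP-1 subunit, held 0, 285 and 2683 TPM at P7 and 0, 2707 and 16369.7 TPM at P14, so that here too the median P14 cell exceeded the highest P7 cell. Its means were 670.0 and 3375 TPM (2.33). Zfp36, the RNA-binding protein tristetraprolin that destabilises cytokine mRNAs, averaged 333 and 2207 TPM (2.72), and its median cell held 107 and 1917 TPM. Atf3, a stress-induced transcription factor, was present in 11 of 28 and 110 of 144 cells (39.3% and 76.4%), with means of 182 and 1049 TPM. At P7 1 cell held 56.1% of all Atf3. Klf6, a zinc finger transcription factor, averaged 89.9 and 696 TPM (2.94).

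Dusp1, the phosphatase that inactivates MAP kinases, averaged 405 and 1040.0 TPM (1.36), but 1 P7 cell held 63.7% of it and the median cell went from 1.2 to 640.2 TPM. Fosb and Klf2 were seen in few P7 cells: Fosb was found in 3 of 28 and 85 of 144 cells, and Klf2 in 1 of 28 and 67 of 144. Egr2 reached 1 TPM in 0 of 28 P7 cells (upper limit 10.7%) and in 35 of 144 P14 cells (24.3%). The 2 measured members not called were Egr1, at 4187 and 8982 TPM but less than 1.5-fold up in run 1 (5970.0 TPM), and Ier5, at 94.6 and 68.8 TPM. The other P7 regions stood between the 2 groups for the leading members. Btg2 averaged 1545 TPM in hippocampal and 2188 TPM in thalamic P7 cells, and Fos 2007 and 2211 TPM. Set against those cells, P14 visual cortex gave a list median of 1.46 over hippocampus and 0.79 over thalamus, beside 0.50 and 0.44 for all measured genes; these comparisons share the P14 cells.

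Because the members moved together, the 250 bases before the start of 4 of them are shown, from RefSeq on GRCm38.p6 and in the direction of transcription. Capitals mark TGACG or its reverse complement CGTCA, the core of the cyclic AMP response element, on either strand.
Btg2 promoter, chr1:134079156-134079405, minus strand: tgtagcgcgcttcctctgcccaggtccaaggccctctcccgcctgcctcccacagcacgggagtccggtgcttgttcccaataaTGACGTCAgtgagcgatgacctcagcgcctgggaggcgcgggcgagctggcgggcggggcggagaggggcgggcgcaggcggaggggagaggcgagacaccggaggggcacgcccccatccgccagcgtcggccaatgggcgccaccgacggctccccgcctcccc
Fos promoter, chr12:85473640-85473889, plus strand: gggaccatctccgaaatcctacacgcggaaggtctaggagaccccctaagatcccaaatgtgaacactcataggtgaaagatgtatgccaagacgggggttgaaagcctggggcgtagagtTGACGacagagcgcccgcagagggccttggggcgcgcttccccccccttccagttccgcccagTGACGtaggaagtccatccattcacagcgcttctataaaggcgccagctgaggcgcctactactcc
Dusp1 promoter, chr17:26508473-26508722, minus strand: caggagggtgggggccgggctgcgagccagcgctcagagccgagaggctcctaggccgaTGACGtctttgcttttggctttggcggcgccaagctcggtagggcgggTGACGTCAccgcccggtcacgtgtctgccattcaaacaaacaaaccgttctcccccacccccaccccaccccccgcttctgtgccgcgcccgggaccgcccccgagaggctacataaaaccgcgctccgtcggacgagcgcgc
Atf3 promoter, chr1:191183334-191183583, minus strand: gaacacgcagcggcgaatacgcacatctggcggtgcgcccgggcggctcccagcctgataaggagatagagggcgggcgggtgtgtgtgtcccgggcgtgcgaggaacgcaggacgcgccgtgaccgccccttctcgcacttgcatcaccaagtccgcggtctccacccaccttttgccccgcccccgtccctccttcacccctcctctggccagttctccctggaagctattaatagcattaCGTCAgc
In windows from 250 bases before to 50 after the start, TGACG on either strand was found in 13 of the 22 promoters listed for 18 immediate early genes (59.1%), and in 20.8% of all 32851 promoters of the table. The full palindrome TGACGTCA, which contains TGACG, was in 3 of 22 (13.6%) and in 1.79% of all promoters. The CArG box, the site of serum response factor, was in 5 of 22, all from 2 genes (22.7%, and 1.63% of all). TGACTCA, an AP-1 site, was in 0 of 22 and in 5.20% of all. Some genes have several listed promoters that share sequence, base composition was not matched, and a match is a description of letters only.

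Inflammatory cytokine and NF-kB genes, the latter of the transcription factor pathway that many danger signals converge on, leaned higher, unevenly. Of 21 measured members 10 were higher and 3 lower, beside 33.7% and 16.4% of all measured genes, whose median was 0.85. The median ratio was 1.91 (0.63 in run 1 and 1.72 in run 2), and the median difference of mean log2(TPM + 1) was 0.69. Il1a, interleukin 1 alpha, reached 7.93 TPM in the highest of the 28 P7 cells, and only 2 of them had 1 TPM. At P14 73 of 144 cells had it (50.7%, interval 42.2 to 59.1), the highest at 5332 TPM, for means of 0.324 and 367 TPM. Transcripts of NF-kB feedback regulators showed the same direction: Tnfaip3, which encodes the ubiquitin-editing enzyme A20, averaged 28.9 and 204 TPM, and Nfkbiz, a nuclear co-regulator, 11.3 and 200.4 TPM. Rel, an NF-kB subunit, averaged 19.1 and 133 TPM.

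Among secreted factors, Tnf averaged 0.386 and 48.7 TPM and was found in 2 of 28 and 22 of 144 cells. Ccl2, the monocyte chemoattractant, averaged 299.7 and 1129 TPM. The chemokines Ccl3 and Ccl4 did not follow: Ccl3 averaged 1377 TPM at P7 and 852 TPM at P14 and was present in 67.9% and 48.6% of cells, and Ccl4 averaged 2251 and 3073 TPM with 82.1% and 59.7% of cells. Il1b was found in 0 of 28 P7 cells and 1 of 144 P14 cells. In the cells matched for genes per cell the list median was -0.46, so the direction of the list as a whole depends on which cells are compared. Hippocampal and thalamic P7 cells had Il1a at 32.5 and 90.1 TPM, above the P7 visual cortex mean. The mean summed level of the 23 listed genes was 5475 TPM at P7 and 8270 TPM at P14 in the visual cortex. It was 8682 TPM in P7 hippocampus, 10455 TPM in P7 thalamus and 3582 TPM in single-read P14 cells. The list median of P14 was 0.90 over P7 hippocampus and 0.72 over P7 thalamus, beside 0.50 and 0.44 for all measured genes.

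TGF-beta signalling genes leaned higher as well, with 7 of 14 measured members higher and 0 lower, beside 33.7% and 16.4% of all measured genes. The list median was 1.21 (0.71 for mean log2 differences), beside 0.85 (0.16) over all measured genes. Against P7 hippocampus and thalamus it was 0.59 and 0.39, near the 0.50 and 0.44 for all measured genes. TGF-beta is made in the brain and sustains the mature microglial program. Tgfbr1, its type I receptor (chromosome 4, 47353222 to 47414931, plus strand), stood at 0, 13.5 and 1091 TPM in the lowest, median and highest P7 cells and at 0, 247 and 2972 TPM at P14. It was present in 19 of 28 and 137 of 144 cells (67.9% and 95.1%). Means were 104 and 445 TPM (491 in run 1 and 408 in run 2), a log2 ratio of 2.09. The P14 cells lay higher in both runs although the ranges overlapped. Feedback genes that TGF-beta induces were also higher: Pmepa1 averaged 9.80 and 47.4 TPM, Smad7 5.35 and 18 TPM, and Skil, a SMAD repressor, 229 and 371 TPM. Skil averaged 223 TPM in single-read P14 cells and 307 TPM in P7 thalamus. Ltbp1, which tethers latent TGF-beta to the matrix, averaged 10.9 and 31.5 TPM. The type II receptor gene Tgfbr2 (137 and 103 TPM), Smad3 (27.1 and 40.0 TPM) and Nrros, which presents latent TGF-beta on microglia (378 and 344 TPM), were not called.

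Of 23 measured transcription factor genes of macrophages 7 were higher and 0 lower, beside 33.7% and 16.4% of all measured genes. The count of higher members is thus not above the background, and the list median of 0.35 lay below the 0.85 of all measured genes. Over P7 hippocampus and thalamus it was -0.05 and 0.18. Fli1, an ETS factor, averaged 56.3 and 141 TPM and was equal in both runs (141 and 140.3 TPM). Runx1, which acts in early macrophage development, averaged 3.23 and 44.0 TPM and was found in 17.9% and 39.6% of cells. Elf1, another ETS factor, averaged 19.3 and 68.5 TPM, but its ratio turned to -0.49 in the cells matched for genes per cell. Among 20 growth factor and receptor genes 4 were higher and 3 lower. Il10ra, the receptor of interleukin 10, averaged 96.6 and 319 TPM, and Csf1, the ligand of CSF1R, 68.4 and 9.01 TPM, with 1 P7 cell holding 81.3% of it.

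**Figure D3:**
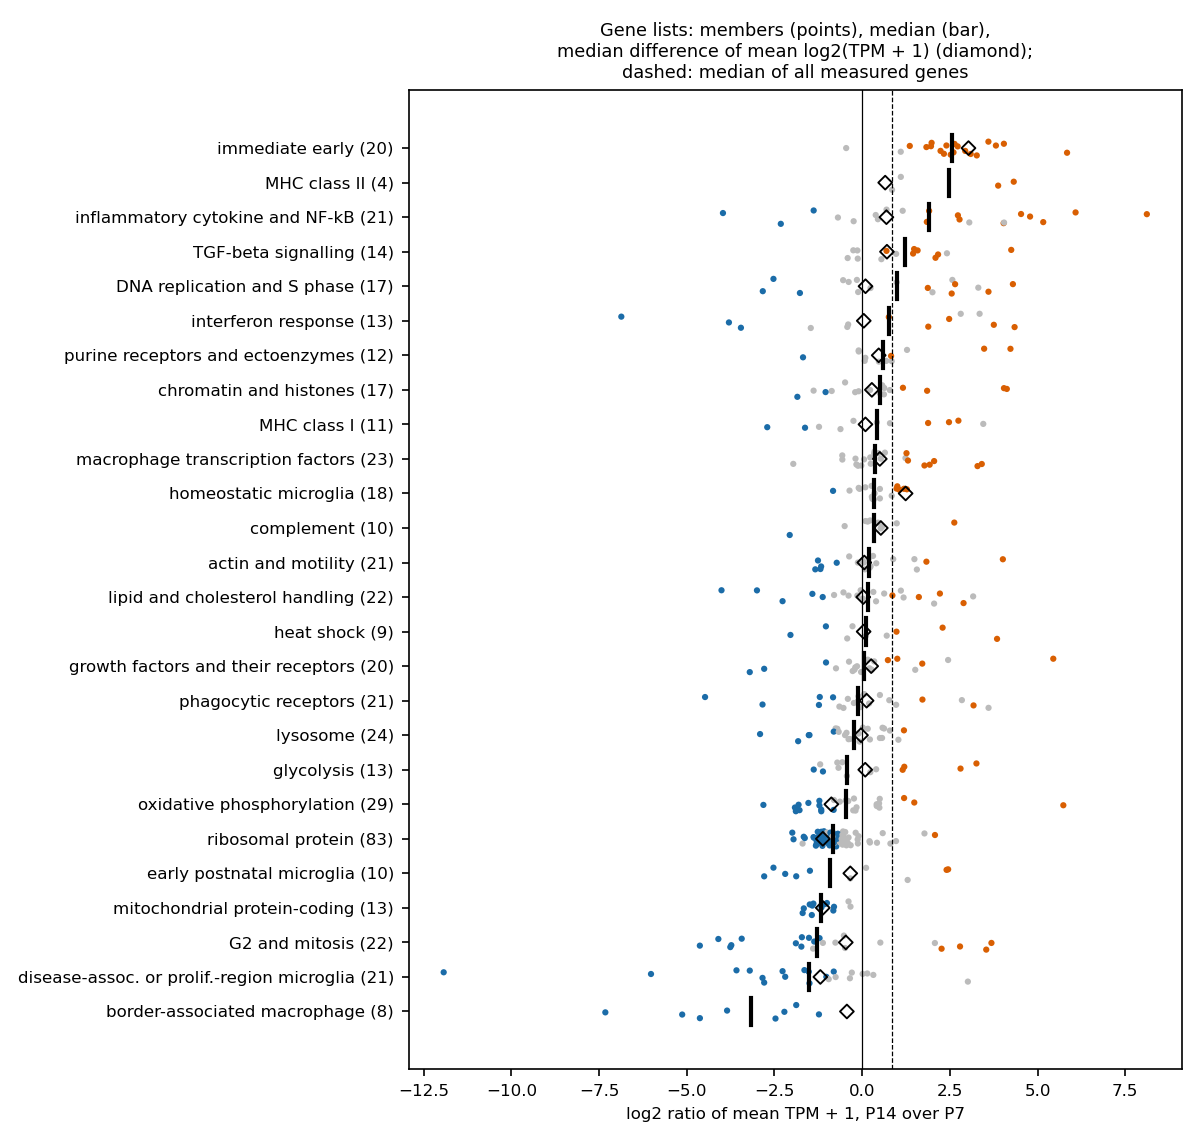
Log2 ratio of mean TPM + 1, P14 over P7, for each measured member of 26 gene lists (numbers of members in brackets). Orange members were called higher, blue lower and grey neither; the bar is the list median, the diamond the median difference of mean log2(TPM + 1), and the dashed line the median of all measured genes, 0.85. Immediate early genes lie highest and border-associated macrophage markers lowest, where bar and diamond are far apart.

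Genes of the disease-associated and proliferative-region states leaned lower at P14. These states share a program of lysosomal, lipid-handling and secreted genes, seen in degenerating brains and in the early postnatal brain. Of 21 measured members 0 were higher and 13 lower, beside 33.7% and 16.4% of all measured genes, and the median log2 ratio was -1.50 (-1.19 for mean log2 differences). Every setting tried left this median between -2.06 and -1.07. The summed level of the 24 listed genes ran from 1559 to 212038 TPM in P7 cells (median 33796) and from 1423 to 111890 TPM in P14 cells (median 19382).

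Spp1, which encodes the secreted protein osteopontin, was found in 8 of 28 P7 cells (28.6%, interval 13.2 to 48.7). The highest cell held 93477 TPM, which is 85.5% of all Spp1 at P7, and the median cell 0. It was listed at 0 in all 144 P14 cells, for an upper limit of 2.08% of cells. Igf1, a growth factor released by postnatal microglia, was found in 6 of 28 and 4 of 144 cells, with means of 81.5 and 7.96 TPM. Lpl, lipoprotein lipase, averaged 229 and 46.8 TPM, but 1 P7 cell held 58.6% of it, and it was found in 78.6% of P7 and 89.6% of P14 cells. Clec7a and Axl, receptors for fungal glucans and for phosphatidylserine bridging proteins, each rested on 1 P7 cell, which held 99.6% and 98.5% of the P7 total. Without the highest cell of each age the log2 ratio for Axl was 0.0013. Apoe, the lipid carrier, was not called: it averaged 749.6 and 935 TPM, the P14 runs lay far apart (1798 and 226 TPM), and it was found in 71.4% of P7 and 47.2% of P14 cells.

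Some lysosomal members of the list were lower at P14 in the median cell as well as in the mean. Ctsb, the protease cathepsin B (chromosome 14, 63122462 to 63145923, plus strand), held 54.0, 4279.6 and 17334 TPM in the lowest, median and highest P7 cells and 0, 1211 and 5478 TPM at P14. Its means were 4343 and 1512 TPM (1296 in run 1 and 1689 in run 2), a log2 ratio of -1.52. The median P14 cell held less than the median P7 cell, and the ranges overlapped. Ctsl, cathepsin L, held 1.07, 3095 and 9439 TPM at P7 and 0, 786 and 5322 TPM at P14 (means 3070.4 and 1083 TPM, -1.50). Cd68, a lysosomal membrane protein, averaged 2683 and 1530.0 TPM (-0.81), and Lyz2, lysozyme, which was found in 46.4% of P7 and 18.8% of P14 cells, 623 and 135 TPM (-2.19). Ctsd, cathepsin D, was not called (6144 and 4825 TPM), and its difference of mean log2(TPM + 1) was 1.03. Ctsz, cathepsin Z, was not called either (2226 and 1318 TPM). In the lysosomal list as a whole, of 24 measured genes 1 was higher and 5 were lower, beside 33.7% and 16.4% of all measured genes. Its median was -0.23, beside 0.85 over all measured and -0.25 over abundant genes. Of 21 phagocytic receptor genes 2 were higher and 5 lower (median -0.10), among the latter Fcer1g, the common gamma chain of Fc receptors (5490.1 and 2376 TPM, -1.21). Its median cell went from 4480.2 to 2158 TPM.

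Mrc1, the mannose receptor, marks border-associated macrophages and is also found in immature microglia (chromosome 2, 14229392 to 14332057, plus strand). It was present in 24 of 28 P7 cells and 86 of 144 P14 cells (85.7% and 59.7%). The lowest, median and highest cells held 0, 434 and 5361 TPM at P7 and 0, 17.5 and 2386 TPM at P14. Means were 815 and 221 TPM (-1.88). In the hippocampus and thalamus at P7 Mrc1 averaged 316 and 109 TPM, so the P7 visual cortex cells were the highest of the 3 P7 regions. Among 10 early postnatal genes 2 were higher (Cxcr2 and Fn1) and 5 lower, beside 33.7% and 16.4% of all measured genes. The list median was -0.91 in the visual cortex. Over P7 hippocampus it was -0.75 and over P7 thalamus 0.76, so its direction depends on the P7 region. Besides Mrc1 and Lyz2, Dab2, an endocytic adaptor, was lower (266 and 94.0 TPM), and Crybb1, a crystallin gene of young microglia, was not called (476 and 377 TPM).

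Border-associated macrophages line vessels and meninges and pass the same sort gate. All 8 of their measured markers were lower at P14 (median -3.16), beside 16.4% of all measured genes. Apart from Mrc1 and Stab1, most of this level sat in a single cell. In 1 of the 28 P7 cells F13a1 stood at 4449.9 TPM, Pf4 at 11212 TPM, Mrc1 at 5361 TPM, Cd209f at 953 TPM and Lyve1 at 663 TPM, while Tmem119 and Sall1 were at 0. No P14 cell reached 100 TPM of a marker used to look for such cells (F13a1, Lyve1, Cd163, S100a8, Ly6c2 or Ccr2). Without that cell the list median was 0.16 and the ratio for Pf4 turned to 1.54. With the cell included, the median difference of mean log2(TPM + 1) was -0.44. The list median of P14 was -2.92 over P7 hippocampus and 0 over P7 thalamus. Siglec1, a listed marker below the level called measured, went the other way (0.427 and 3.13 TPM). It was found in 10.7% of P7 and 52.8% of P14 cells. The summed level of the 13 markers, Mrc1 included, ran from 1 to 25311 TPM at P7 and from 0 to 6718 TPM at P14.

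Many defining markers of other cell types were at 0 in all cells, with exceptions at both ages. All 11 macrophage markers in the table were measured, with 1 higher and 2 lower, beside 33.7% and 16.4% of all measured genes. Their summed level was 1687 to 47433 TPM at P7 and 6495 to 43827 TPM at P14. Of 9 neutrophil markers 8 were at 0 in all 172 cells, S100a8 and S100a9 among them, and of 9 monocyte markers 5, including Ly6c2. Cd3e, Cd3g and Cd79a of lymphocytes, Slc17a7 and Gad1 of neurons, Gfap of astrocytes, Pdgfra of oligodendrocyte precursors and Cldn5 of endothelium were at 0 in all cells. Among the exceptions, Cd79b, a chain of the B cell receptor, was found in 35.7% of P7 and 34.0% of P14 cells (means of 385 and 189 TPM). Fn1, fibronectin, from the monocyte list, was called higher at P14 at low levels (0.706 and 8.05 TPM) and was found in 39.3% of P7 and 93.1% of P14 cells. Slc1a3, a glutamate transporter of astrocytes, averaged 144 and 80.2 TPM and was found in 25% and 32.6% of cells. In the oligodendrocyte list Cnp was lower (65.5 and 39.5 TPM, in 35.7% and 14.6% of cells) and Mag was higher (0.226 and 13.9 TPM, in 7.14% and 22.2%). The part of these transcripts in the results was not tested. Gja1, a connexin of astrocytes, averaged 52.4 TPM at P7, nearly all in 1 cell of 1463 TPM, and was listed at 0 at P14. Pecam1, an endothelial gene that macrophages can also transcribe, was found in 2 of 28 P7 and 62 of 144 P14 cells (7.14% and 43.1%).

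Genes of mitosis leaned lower at P14, while those of S phase stood near the background when set against P7 visual cortex. Microglia proliferate in the first postnatal weeks and then become largely quiescent. Of 22 measured G2 and mitosis genes 4 were higher and 11 lower at P14 (median -1.29), while of 17 measured replication and S phase genes 5 were higher and 3 lower (median 0.99; 0.28 in run 1 and 0.39 in run 2), beside a median of 0.85 and shares of 33.7% and 16.4% over all measured genes. The sign of the S phase median turned under 3 of the settings given at the end. Over P7 hippocampus and thalamus the S phase median was -1.81 and -0.30, beside 0.50 and 0.44 for all measured genes. Over both lists 9 were higher and 14 lower (median -0.49). Differences of mean log2 values were smaller, with medians of -0.47 and 0.10 for the 2 lists. Mki67, a nuclear protein of cycling cells, was found in 8 of 28 P7 cells and 13 of 144 P14 cells (28.6%, interval 13.2 to 48.7, and 9.03%, 4.89 to 14.9). Its means were 48.6 and 20.4 TPM and its highest cells 588 and 1282 TPM. In cells with 2000 genes or more the ratio for Mki67 was 0.11 instead of -1.21. Top2a, the topoisomerase that untangles replicated DNA, averaged 89.6 and 23.5 TPM at nearly equal shares of cells (25% and 21.5%).

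Mitotic regulators each rested on a few P7 cells. Ccnb2, a mitotic cyclin, averaged 188 and 13.2 TPM and was found in 5 of 28 and 7 of 144 cells. Cdc20, an activator of the anaphase-promoting complex, averaged 24.6 and 0.0355 TPM, with 1 P7 cell holding 96.1%. Birc5, the survivin gene, averaged 134 and 6.89 TPM, and Aurka, a mitotic kinase, 27.3 and 1.09 TPM. Among replication genes the members of the same MCM helicase went both ways. Mcm3 averaged 1.44 and 46.9 TPM, Mcm5 70.5 and 11.4 TPM, and Mcm7 94.2 and 12.4 TPM. Each of the 3 was found in fewer than 1 in 5 cells of either age.

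Counted per cell, 18 of 28 P7 cells (64.3%, interval 44.1 to 81.4) and 86 of 144 P14 cells (59.7%, 51.2 to 67.8) had 5 or more of the 41 listed genes at 1 TPM. At 10 genes or more the counts were 5 of 28 (17.9%, 6.06 to 36.9) and 10 of 144 (6.94%, 3.38 to 12.4). The P7 cells had fewer genes per cell, and its part in these counts was not tested. Cells with 20 or more of the 41 genes, a group that stands apart in the plot of cell cycle genes per cell, occurred at both ages. In P7 hippocampus and thalamus 35.7% and 23.8% of cells had 10 or more.

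**Figure D4:**
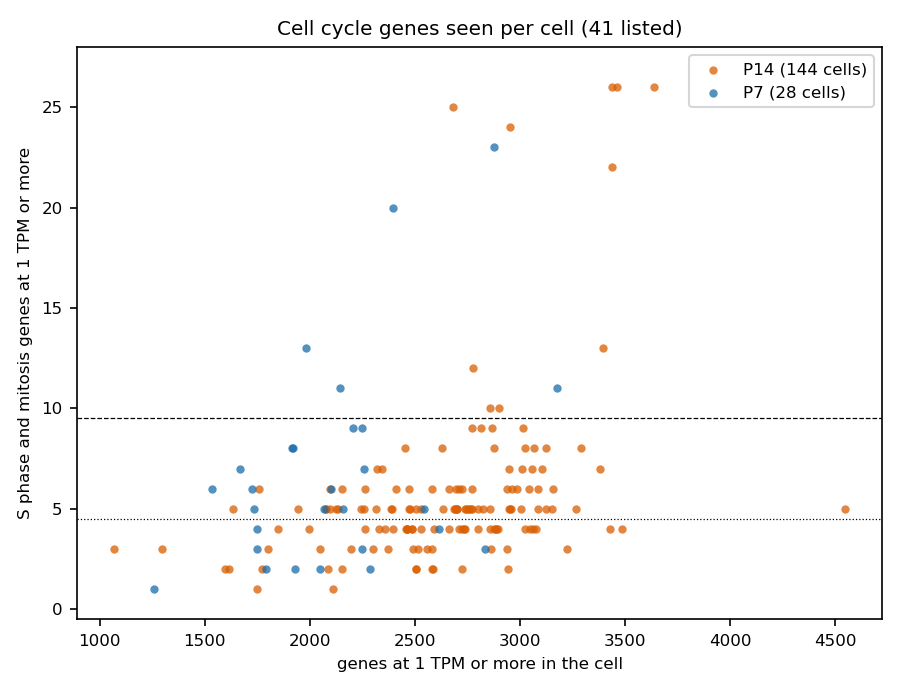
Number of the 41 S phase and mitosis genes at 1 TPM or more in each cell (y axis) against all genes at 1 TPM or more in that cell (x axis), for 28 P7 cells (blue) and 144 P14 cells (orange). The dotted line separates cells with 5 or more cell cycle genes and the dashed line those with 10 or more; a few cells of each age lie far above the rest, up to 23 genes at P7 and 26 at P14.

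The promoters of 2 mitotic genes that were lower at P14 are shown from the same table, with capitals marking CCAAT, the site of NF-Y, and TTTGAA, the cell cycle homology region of G2 and mitosis genes, on either strand.
Ccnb2 promoter, chr9:70421555-70421804, minus strand: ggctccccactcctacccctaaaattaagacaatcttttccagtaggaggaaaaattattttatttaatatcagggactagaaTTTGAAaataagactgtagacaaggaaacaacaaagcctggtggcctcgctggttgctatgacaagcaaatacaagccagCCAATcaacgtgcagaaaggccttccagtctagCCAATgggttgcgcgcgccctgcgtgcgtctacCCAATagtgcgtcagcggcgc
Cdc20 promoter, chr4:118437344-118437593, minus strand: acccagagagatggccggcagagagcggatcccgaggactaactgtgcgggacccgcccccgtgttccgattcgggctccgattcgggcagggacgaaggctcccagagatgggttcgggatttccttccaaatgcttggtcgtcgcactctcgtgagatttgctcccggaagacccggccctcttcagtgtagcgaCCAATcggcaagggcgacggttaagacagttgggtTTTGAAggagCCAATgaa
CCAAT was found in 28 of the 37 promoters listed for 35 S phase and mitosis genes (75.7%) and in 37.4% of all promoters, with windows of the same 300 bases. TTTGAA was found in 13 of 37 (35.1%) and in 17.9% of all, and its variant TTCGAA in 4 of 37 (10.8%) and in 1.56%. For comparison, the PU.1-like purine box GAGGAA was in 5 of the 14 promoters listed for 12 homeostatic genes (35.7%) and in 28.3% of all. Neither share says whether a factor was bound in these cells.

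Antigen presentation genes of class I differed by gene. H2-K1 and H2-D1, the classical heavy chains, were higher at P14: H2-K1 averaged 845 and 3115 TPM (1.88), and H2-D1 232 and 1293 TPM (2.48), equal in both runs (1301 and 1287 TPM). The median cell went from 3.34 to 1688 TPM for H2-K1 and from 39.1 to 563 TPM for H2-D1, with overlapping ranges. B2m, their light chain, was not called (2724 and 2294 TPM), and Tap1 and Psmb8 of peptide supply were lower (47.7 and 6.47 TPM, 315 and 101 TPM). Of 11 measured class I genes 3 were higher and 2 lower (median 0.42), beside 33.7% and 16.4% of all measured genes. H2 heavy chains are near-identical copies of each other, so how reads were shared among them is uncertain. In the single-read P14 cells of the same region H2-D1 averaged 445 TPM, below the paired-end value and still above P7. H2-K1 averaged 1119 TPM there, a log2 ratio of 0.40 over P7 and less than 1.5-fold. In P7 hippocampus and thalamus H2-K1 averaged 1407 and 1169 TPM. Class II genes H2-Aa, H2-Ab1, H2-Eb1 and Ciita were at 0 in all cells of both ages. Of 4 measured class II genes 2 were higher, both at low levels, and 0 lower, beside the same shares (median 2.49, and 0.66 for mean log2 differences). Cd74 averaged 0.0629 and 14.6 TPM and was found in 3.57% of P7 and 17.4% of P14 cells. H2-DMb2 averaged 0.0407 and 19.8 TPM, in 3.57% and 30.6%. The class II median was -1.41 over P7 hippocampus and 0.44 over P7 thalamus.

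Interferon response genes had no common direction, with 5 of 13 measured members higher and 3 lower. These counts are near the 33.7% higher and 16.4% lower among all measured genes. Mx1, an antiviral GTPase, averaged 143 and 0.239 TPM because 1 P7 cell held 95.8% of it. Complement genes had few calls beside the same shares: of 10 measured, C5ar2, a C5a receptor, was higher (13.3 and 87.3 TPM) and Cfp, properdin, was lower. The C1q chains, which tag synapses for removal, were not called. C1qa averaged 316 and 627 TPM, C1qb 4581 and 5110.5 TPM and C1qc 672 and 920.4 TPM.

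Transcripts of the translation and respiration machinery leaned lower at P14. Of 83 measured ribosomal protein genes 1 was higher, namely Rpl10, and 46 were lower (median -0.84), and of 13 mitochondrially encoded genes 0 were higher and 11 lower (median -1.16), beside 25.3% lower among abundant genes. Rpl32, of the large subunit, averaged 3954 and 1272 TPM, with median cells of 2959 and 1011 TPM. mt-Cytb, cytochrome b, averaged 9984 and 4469.8 TPM. Among 29 nuclear genes of oxidative phosphorylation 3 were higher and 12 lower (median -0.47). Cox4i1, of cytochrome c oxidase, averaged 1518 and 424 TPM (-1.84), its median cell 931 and 80.8 TPM. Ribosomal protein genes have many processed copies, so single values are uncertain. The same groups were lower at P14 when set against P7 hippocampus (medians -0.52 for ribosomal and -1.25 for mitochondrial genes) and P7 thalamus (-0.35 and -1.76).

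Other gene groups went both ways. Their counts stand beside 33.7% higher and 16.4% lower among all measured genes, and none of these lists had a share of higher members above that. Of 13 glycolysis genes 4 were higher and 2 lower: Gapdh averaged 1298 and 498 TPM and Hk2, hexokinase 2, 249 and 575 TPM. Of 22 genes of lipid and cholesterol handling 4 were higher and 5 lower, of 12 purine receptor and ectoenzyme genes 3 and 1, of 17 chromatin genes 4 and 2, and of 9 heat shock genes 3 and 2. P2rx7, the ATP-gated channel, averaged 324 and 99.9 TPM, and Dnaja1, an HSP40 co-chaperone, 19.9 and 299.9 TPM. Of 21 actin and motility genes 2 were higher and 5 lower. Tmsb4x, the actin-sequestering thymosin beta 4 and one of the most abundant transcripts, held 1026, 9059.6 and 33023 TPM in the lowest, median and highest P7 cells and 664, 3502 and 16365 TPM at P14 (means 9465 and 4149 TPM, -1.19). Rhob, a small GTPase that is also an immediate early gene, averaged 98.4 and 353 TPM.

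By size of the ratio in the smaller of the 2 runs, the leading genes higher at P14 were mostly transcripts that P7 cells nearly lacked. Besides Il1a they included Ifrd1, a co-regulator of transcription, which was listed at 0 at P7 and found in 38.2% of P14 cells (mean 204.6 TPM). Trafd1, a feedback inhibitor of innate signalling, averaged 0.0389 and 135 TPM, and Gimap6, a GTPase of immune cells, 0.0196 and 126 TPM. Leading genes lower at P14, besides Spp1, included Sh3bgrl (109.6 and 1.39 TPM), Otud6b, a deubiquitinase (238 and 4.33 TPM), Snn (196 and 11.7 TPM) and Tcp1, a subunit of the chaperonin TRiC (451 and 51.1 TPM). Sh3bgrl was found in 32.1% of P7 and 2.78% of P14 cells. Otud6b averaged 89.1 and 8.78 TPM in the hippocampal and thalamic P7 cells, so the 3 P7 regions did not share a level.

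**Figure D5:**
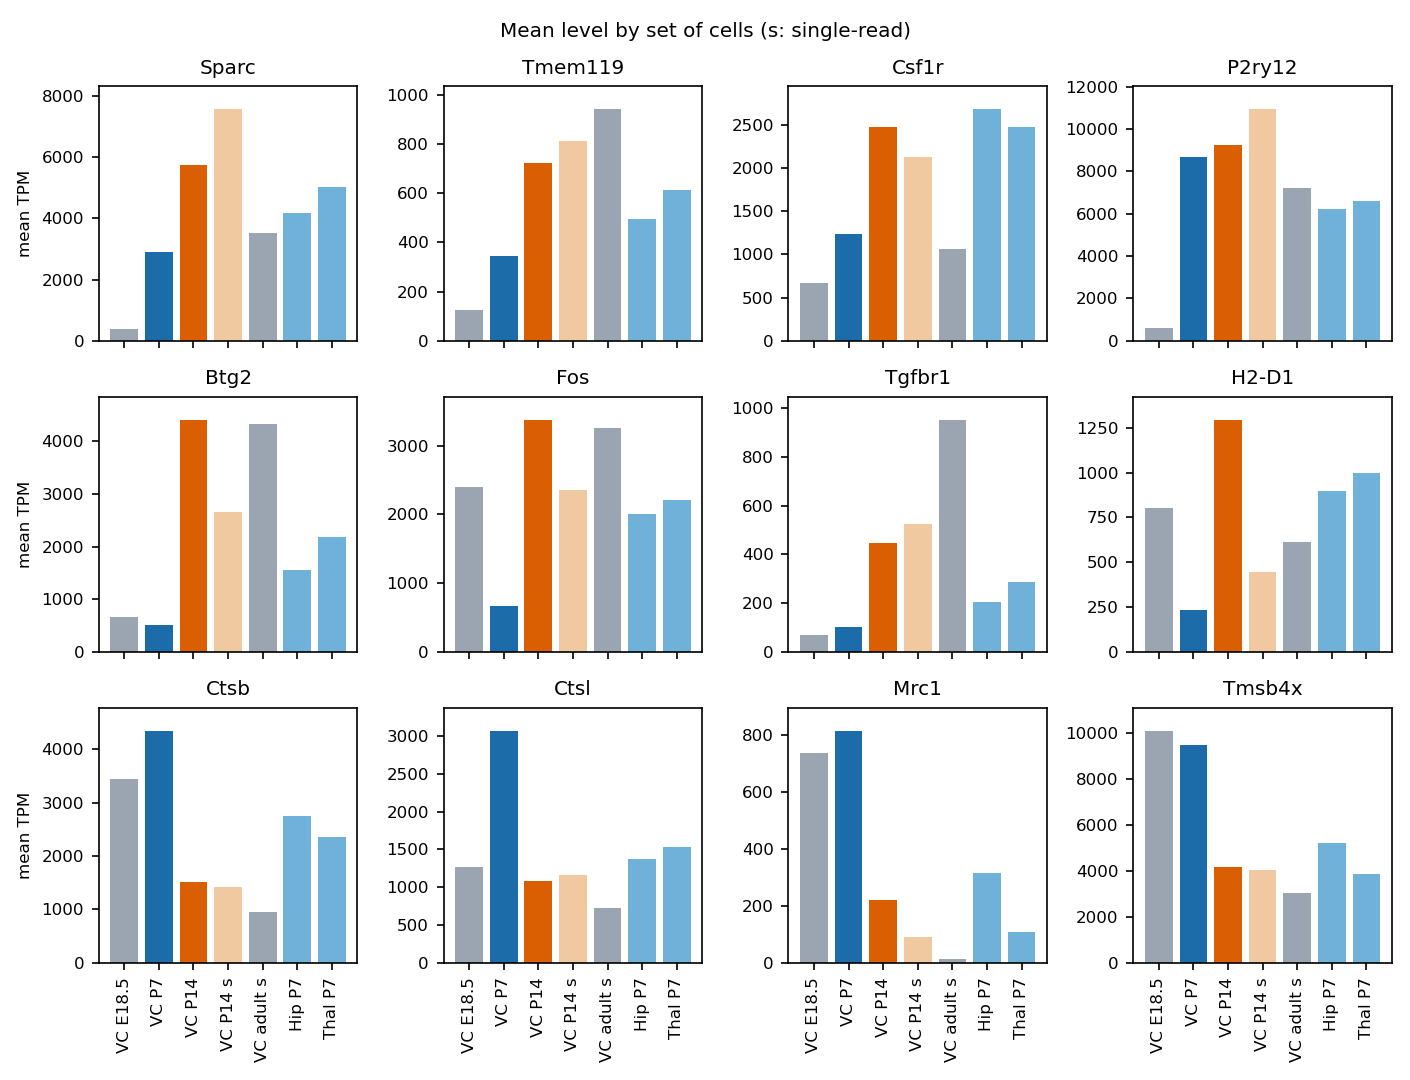
Mean TPM of 12 genes in 7 sets of kept cells: visual cortex (VC) at E18.5, P7, P14 and adult, with paired-end and single-read (s) sets shown apart, and hippocampus (Hip) and thalamus (Thal) at P7. Bars start at 0 and carry no error because each set is 1 sample. Ctsb, Ctsl, Mrc1 and Tmsb4x are higher in P7 than in either P14 set of the visual cortex, and Csf1r is as high in the other P7 regions as at P14.

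Set beside other ages and regions, P7 visual cortex differed from P7 hippocampus and thalamus for several of the genes above. Csf1r averaged 2678 TPM in P7 hippocampus and 2470 TPM in P7 thalamus, beside 2467 TPM in P14 visual cortex. For this gene the visual cortex difference between ages therefore was not seen against the other P7 regions. Sparc (4166 and 5023 TPM), Tmem119 (494 and 613 TPM) and Tgfbr1 (203 and 287 TPM) lay between the 2 visual cortex ages. Ctsb (2756 and 2354 TPM) and Ctsl (1377 and 1538 TPM) also lay between them. The single-read P14 cells, a separate set of 119 cells of the same age and region, averaged 7568 TPM of Sparc, 812 TPM of Tmem119, 2666 TPM of Btg2, 526 TPM of Tgfbr1 and 1418 TPM of Ctsb. Each lay on the same side of the P7 mean as the paired-end set. Within P14 the layouts themselves differed, with 37.2% of measured genes 1.5-fold higher and 28.1% lower in single-read cells. For genes of the disease-associated list the median of P14 over P7 was -0.50 against hippocampus and -0.64 against thalamus, beside -1.50 in the visual cortex. For S phase and mitosis genes it was -2.37 and -1.54, beside -0.49.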

How the data were processed

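The authors deposited 1 table of TPM values, which are not counts and carry no depth; RSEM 1.2.19, Seurat and GRCm38 are named in the submitters' processing notes, while the sources used here do not give the aligner, annotation or strand handling. Overlapping genes and near-identical copies are therefore uncertain. Cells were grouped by the source name and layout in the labels. The side-by-side values came from the other sets of visual cortex, hippocampus and thalamus cells named above. The remaining 1120 columns of the series were not used here. Cells under 1000 genes at 1 TPM were left out.

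Means, shares of cells at 1 TPM with exact Clopper-Pearson 95% intervals, log2 ratios of mean TPM after adding 1 TPM, which makes ratios of low genes too small, and differences of mean log2(TPM + 1) were computed with Python 3.11.15, numpy 2.4.6, pandas 2.3.3 and scipy 1.17.1, and plotted with matplotlib 3.10.9. The limit for a share of 0 is that of 3 counts. The calling rule needs 1.5-fold in both P14 runs.

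Named were the 12 called genes in each direction with the largest ratio in the smaller run (mean of 50 TPM and 25% of cells in the higher group; not mitochondrial, ribosomal, predicted, pseudogenes, Y-linked or Xist), up to 4 called members per list (20 TPM), and fixed genes such as P2ry12, Spp1 and Mki67. Other list members, and H2-K1, Rpl32 and mt-Cytb, were named after their values were seen. A few genes taken by this rule were left out of the text. The members and lists were chosen with earlier results of these data known. Coordinates are from GENCODE M21, which matched 39379 of 43280 names (91.0%), and promoters from RefSeq. Alternatives were other pseudocounts, filters, folds, cells, scalings and P14 sets, as given at the end.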

Additional observations from a re-analysis of the deposited data

How the results depend on the processing

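TPM hides depth, each age is 1 sample and 28 P7 cells bound every P7 value, so levels of rare transcripts rest on single cells. No paired analysis was possible because the labels give no replicate numbers that the ages share. All alternatives listed were run; detection at 10 and 100 TPM applied to shares only. Of 113 called named genes 12 changed direction under some setting, in 12 of 2033 pairs of gene and setting. The cause was not tested for any shift below.

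Higher and lower calls (3381 and 1645) were 1958 higher with a 20 TPM filter, 1314 and 651 by differences of mean log2(TPM + 1), 609 lower without the highest cell of each gene, 1169 higher in cells within the P7 quartiles of genes per cell (where 2249 were lower), and 5449 and 2570 by the pooled ratio alone. Leaving out run 1 or run 2 gave 4776 or 4281 higher and 2328 or 2424 lower genes.

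The median of all measured genes (0.85) was 0.55 with a pseudocount of 10 TPM, 0.29 at 20 TPM, 0.38 unfiltered, 0.16 by mean log2, 0.14 after median-ratio scaling, 1.16 in cells with 2000 genes, 0.58 without run 2, 1.28 with single-read P14 cells, 1.99 without the highest cells, 0.26 in quartile cells and 0.60 in P14 cells with Xist and no Y-linked transcript. The last setting, and the one without genes of short RNAs, were chosen after seeing the data.

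The homeostatic median (0.34) was 1.24 by mean log2, -0.21 after scaling, 0.46 with all cells, 0.46 without run 1, 0.54 without the highest cells and 0.46 in Xist cells. The disease-associated median (-1.50) was -1.07 with 10 TPM, -1.19 by mean log2, -2.06 after scaling, -1.74 without run 2, -1.14 without the highest cells and -1.20 in quartile cells. The cytokine median (1.91) was 0.69 by mean log2, 3.58 in cells with 2000 genes, 1.08 with single-read cells, 3.79 without the highest cells, -0.46 in quartile cells and 0.60 in Xist cells.

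The S phase and mitosis median (-0.49) was -0.37 with 10 TPM, -1.17 at 20 TPM, -0.39 unfiltered, -0.35 by mean log2, -1.06 after scaling, -0.38 with all cells, -0.079 in cells with 2000 genes, -0.63 without run 1, -0.69 with single-read cells, -0.20 without the highest cells, -4.62 in quartile cells, -2.41 in Xist cells and -0.43 without short RNAs. Cells with 3 or more cell cycle genes made 82.1% at P7 and 91.0% at P14, and with 10 or more 17.9% and 6.94%.

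Directions that turned were the S phase median at 20 TPM (-0.15), in quartile cells (-2.61) and in Xist cells (-0.062); the interferon median at 20 TPM (-0.42), after scaling (-0.94), without run 1 (-0.058) or run 2 (-0.14) and in Xist cells (-0.67); the class II median in quartile cells (-2.24); and the border-associated median without the marker-rich P7 cell (0.16), with Cd36 at 0.023 and Pf4 at 1.54. Among genes, Hspd1 turned with all cells (-1.56), Mki67 with 2000 genes (0.11), H2afz with single-read cells (0.23), Axl without the highest cells (0.0013), Elf1 (-0.49), Fads1 (-1.52), Rrm2 (-3.93) and Tmem119 (-0.37) in quartile cells, and Aurkb (-1.28) and Cnp (0.0013) in Xist cells.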

Other observations

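Genes of short RNAs, such as miRNA hairpins and small nucleolar RNAs, took a larger share of the TPM at P14. Over 5722 annotated genes of this kind, 53 were above 0 at P7 and 234 at P14, and together they made 1.1% of TPM at P7 and 4.70% at P14 (4.86% in run 1 and 4.57% in run 2). The other P7 regions had 1.33% in hippocampus and 1.70% in thalamus, and visual cortex at E18.5 1.09%. The single-read P14 cells had 4.22%. Without these genes and with each cell rescaled, 3408 genes were higher and 1563 lower at P14.

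Of the genes listed at 0 in all 28 P7 cells, 97 averaged 50 TPM or more at P14, and 66 of these were also at 0 in all P7 cells of hippocampus and thalamus. By annotation, 41 of the 66 were miRNA genes, 11 were small nucleolar RNA genes and 2 were protein-coding. RP23-380A10.6, a clone-named gene that had no entry in the annotation used, averaged 5086 TPM at P14 and was found in 84.0% of P14 cells. It was listed at 0 in the P7 cells of all 3 regions and averaged 569.6 TPM in single-read P14 cells. Snora31, a small nucleolar RNA gene, averaged 1094 TPM at P14, was found in 37.5% of cells and was likewise listed at 0 at P7 in all 3 regions. What made the short RNA genes differ between the sets was not tested.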
